A study of Rattus norvegicus with 4 samples.

Results

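The genes examined here encode the potassium, sodium, calcium and pacemaker channels and their accessory subunits, taken as every gene of the array whose symbol starts with Kcn, Scn and a digit, Hcn and a digit, or Cacn. The rule gave 114 of the 14217 genes that the array measured through probe sets paired with a single gene, and these 114 genes had 181 of its 31042 probe sets. Expression was measured in primary cardiomyocytes from ventricular myocardium of newborn Sprague-Dawley rats (1- to 2-days old), cultured without serum for 24 h after infection. The control group received an adenovirus that expresses GFP alone (Ad-GFP, 2 arrays), and the other group an adenovirus that expresses atrogin-1 together with GFP (Ad-atrogin-1, 2 arrays). Atrogin-1, encoded by Fbxo32, is a muscle ubiquitin E3 ligase, which tags proteins for degradation by the proteasome. Cells of both groups therefore carried adenovirus and GFP, and they came from newborn hearts, whose channel repertoire is not that of the adult. The comparison asks how the channel transcripts stood in the control cells and how far they moved when atrogin-1 was overexpressed.

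Sodium current drives the upstroke of the ventricular action potential, L-type calcium current holds its plateau and starts contraction, and several potassium currents end it and set the resting potential. Each channel has pore-forming subunits, which pass the ions, and accessory subunits, which change gating or bring the pore to the membrane. Pacemaker (HCN) channels and T-type calcium channels, typical of nodal cells in the adult, are also made by newborn ventricular myocytes. Channel proteins are also controlled after translation, and only RNA was analysed here.

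Values are log2 signals, so a difference of 1 is a 2-fold difference, and each gene is represented by its brightest probe set (by the mean of the 4 arrays). The medians of the arrays lay between 5.51 and 5.52. Fbxo32 had a log2 signal of 5.24 and 5.04 on the Ad-GFP arrays and of 13.55 and 13.47 on the Ad-atrogin-1 arrays, a 331-fold difference (adjusted p = 4.05e-05, limma with Benjamini-Hochberg adjustment), which matches the labels. All 8 cardiomyocyte markers measured, such as Tnnt2 and Myh6, lay above the median, as did 7 of 8 fibroblast, 4 of 5 endothelial and all 6 smooth muscle and pericyte markers. Of all genes, 64.0% did, so these counts alone do not show how much RNA came from other heart cells. Of the markers of cells outside muscle that also carry many channels, 1 of 7 for neurons and 0 of 4 for Schwann and glial cells lay above the median. Where a culture is mixed, fewer cells of a type and less RNA per cell cannot be told apart in its RNA.

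In the control cells, 33 of the 114 channel genes (28.9%) had a signal above the array median on both Ad-GFP arrays, against 64.0% of all genes. The count rests on the brightest probe set of a gene and on the median of all probe sets: it was 22 (19.3%, against 59.4% of all genes) with the probe sets of a gene averaged, 17 (14.9%, against 51.6%) where each of them had to pass, and 11 (9.65%, against 48.1%) against the median of the probe sets that stand for genes. A further gene, Kcnj4, lay above it on 1 of the 2 arrays (5.40 and 5.56), and 80 lay below it on both. The median Ad-GFP signal of the channel genes was 4.70, against 6.57 for all genes. A probe set's signal also depends on how well its probes bind, so the median is a threshold on signal and gives no order of RNA amounts between genes, and a signal below it does not show that a transcript is absent. Above the upper quartile of both Ad-GFP arrays were 4 channel genes (3.51%, against 36.1% of all genes): Scn3b, Cacna2d1, Cacnb2 and Kcng2.

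At least 1 gene lay above the median on both Ad-GFP arrays for 10 of 13 types of cardiac current, and 0 did for the inward rectifier, the transient outward current and the ultrarapid and slow delayed outward current. Of 9 pore-forming sodium channel genes measured, 0 lay above the median on either Ad-GFP array, the nearest to it being Scn10a at 5.28 and 5.34. Of 3 sodium channel beta subunits, Scn3b and Scn4b lay above it. Among 10 pore-forming calcium channel genes, 6 lay above it: the L-type Cacna1c and Cacna1f, the T-type Cacna1g, Cacna1h and Cacna1i, and Cacna1a. Of 14 accessory calcium channel genes, Cacna2d1, Cacnb1, Cacnb2, Cacnb3 and Cacng2 did, and of 3 pacemaker channel genes, Hcn2 and Hcn3. Of 31 voltage-gated potassium channel pore genes, 6 did (Kcnc2, Kcng2, Kcnh2, Kcnh3, Kcnq1 and Kcnq5), and of 15 inward rectifiers, 4 (Kcnj3, Kcnj5, Kcnj8 and Kcnj11). The remaining 8 were Kcne3, Kcne4, Kcnip3 and Kcnmb4 among 13 accessory potassium channel genes, Kcnk2 and Kcnk3 among 11 tandem-pore background channels, and Kcnn1 and Kcnt1 among 5 calcium- or sodium-activated channels.

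**Figure D1:**
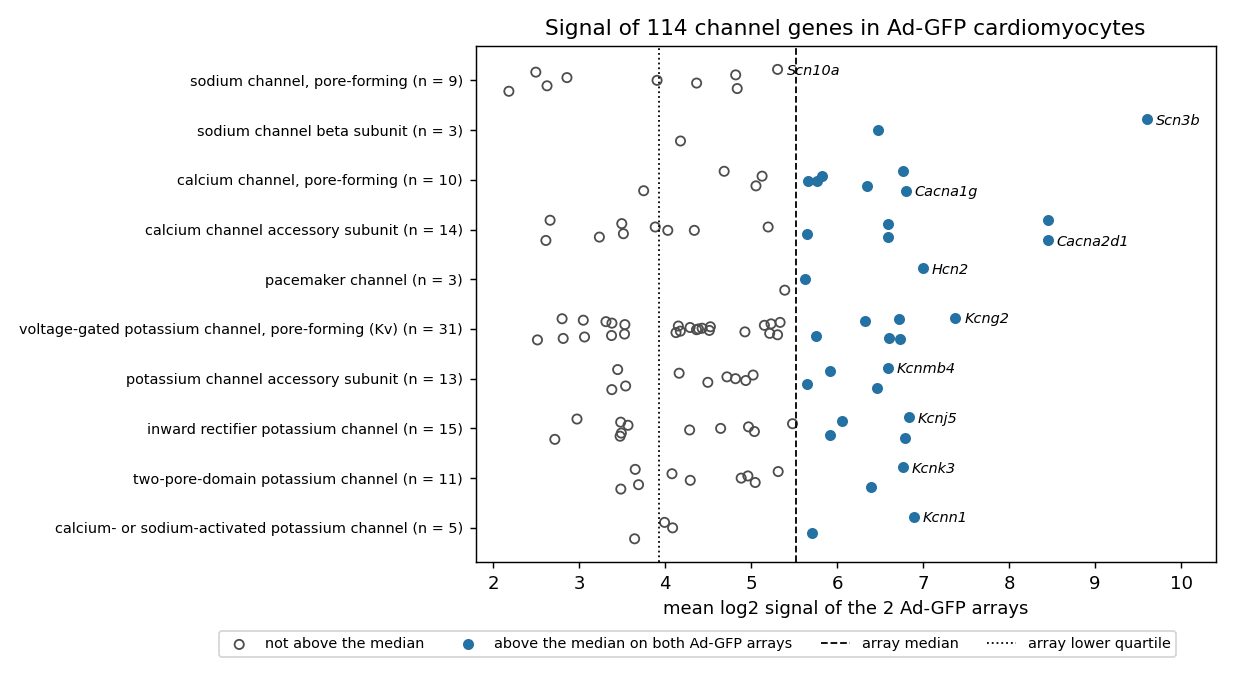
Mean log2 signal of the 2 Ad-GFP arrays (x axis) for each of the 114 channel genes, grouped by family, with the gene of highest signal named in each. The 33 filled points lie above the array median (dashed line) on both arrays, and 0 of the 9 pore-forming sodium channel genes are among them.

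After atrogin-1 overexpression, 0 of the 114 channel genes were called higher, where 0.436% of all genes were, and 0 were called lower, where 0.0563% were, in limma (2-fold or more, with the adjusted p under 0.05). Over single probe sets, 0 of 181 were called, against 0.274% of all probe sets. At an unadjusted p under 0.05, limma put 3 channel genes higher (Kcna4, Kcnh2 and Kcnj8) where 6.61% of all genes were, and 3 lower (Scn3b, Cacna1h and Kcns3) where 6.34% were. Each of the 2 counts was 2.63% of the channel genes. The methods' t-test also called 0, and at an unadjusted p under 0.05 it put 2 channel genes higher (1.75%, where 4.86% of all genes were) and 6 lower (5.26%, where 4.56% were), of which Scn3b and Kcns3 were among the 6 that limma listed. The groups were apart, with both atrogin-1 values the higher, for 17 channel genes (14.9%), where 20.7% of all genes were so, and with both the lower for 18 (15.8%), where 22.3% were.

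The sizes were small. The median log2 fold change of the channel genes was 0.00915 (quartiles -0.08 and 0.13), and that of all genes was -0.0028 (quartiles -0.14 and 0.14). The estimate was under 1.5-fold for 110 of the 114 (96.5%, against 94.5% of all genes), and the 95% interval lay within 2-fold in both directions for 106 (93.0%, against 92.5%). Among the 33 genes above the median it did so for 28 (84.8%, against 91.4% of all genes above the median), the exceptions being Scn3b, Kcnh2, Kcnj8, Kcne3 and Scn4b. Below the median, the interval also reached past 2-fold for Kcna4, Kcnip2 and Scn1a. An unadjusted p under 0.05 was found for 4 of the 33 (12.1%, against 16.1% of all genes above the median). For the genes whose interval holds 0, a change of a size within it cannot be told from none.

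**Figure D2:**
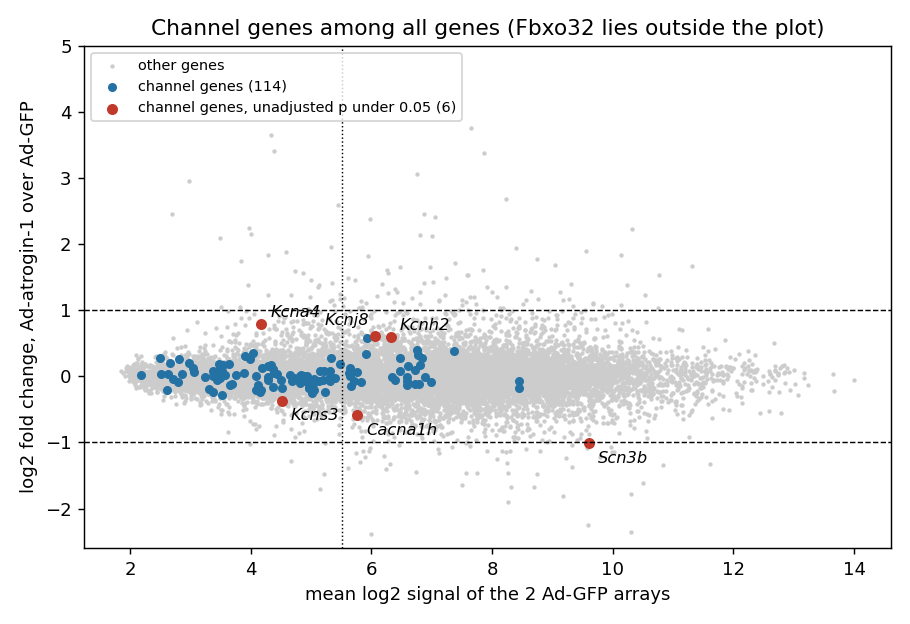
Log2 fold change of Ad-atrogin-1 over Ad-GFP (y axis) against mean Ad-GFP log2 signal (x axis) for 14217 genes in grey, with the 114 channel genes in blue and the 6 of them at an unadjusted p under 0.05 in red. Dashed lines mark 2-fold and the dotted line the array median, and Scn3b is the one channel gene at 2-fold.

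Scn3b, a beta subunit that modulates the gating and surface level of sodium channels, had the largest difference of the channel genes. Its log2 signal was 9.73 and 9.48 with Ad-GFP and 8.58 and 8.61 with Ad-atrogin-1. Both Ad-atrogin-1 arrays lay below both Ad-GFP arrays by more than the gap between replicates of either group. The difference was -1.01 ± 0.14 (SE, n = 2 arrays a group), 2.01-fold lower, with a 95% interval from -1.35 to -0.67 and an adjusted p of 0.0614 in limma, so that it missed the threshold. A second probe set of the gene, with 9.39 and 8.91 against 8.19 and 8.39, differed by -0.86, and its groups did not overlap either. A further quantile normalization of the deposited values brought the adjusted p of the first probe set to 0.0455, which is a call. The adjusted p over all alternatives ran from 0.0455 to 0.463.

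The other 2 sodium channel beta subunits did not share that difference. Scn4b, which promotes resurgent sodium current in some cells, was at 6.22 and 6.74 with Ad-GFP and at 7.17 and 6.33 with Ad-atrogin-1, so the groups overlapped and the difference of 0.27 had an interval from -0.51 to 1.05. Scn2b lay below the median, at 4.28 and 4.08 against 4.42 and 4.20. The 9 pore-forming genes differed by -0.16 to 0.31, and Scn7a, an atypical sodium-sensing member, was the only one of them with both arrays higher (2.50 and 2.50 against 2.76 and 2.80), at signals far below the median. Scn10a, of the sensory neurons, was the only one with both arrays lower (5.28 and 5.34 with Ad-GFP, 5.24 and 5.26 with Ad-atrogin-1).

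The calcium channel genes gave their widest difference in a T-type pore. Cacna1h, which opens at negative potentials, was at 5.93 and 5.61 with Ad-GFP and at 5.30 and 5.07 with Ad-atrogin-1. The groups did not overlap, and both Ad-atrogin-1 arrays were below the array median that both Ad-GFP arrays exceeded. The difference was -0.58 ± 0.16 (1.49-fold lower, adjusted p = 0.246 in limma), while a dimmer probe set of the gene differed by -0.04. Cacna1g, the other T-type pore of the newborn ventricle, was at 6.63 and 6.97 against 7.02 and 6.92, and its difference of 0.17 ran from -0.21 to 0.56.

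Of the L-type channel, Cacna1c, the pore that admits the calcium for contraction, was at 6.52 and 7.02 with Ad-GFP and at 7.34 and 6.84 with Ad-atrogin-1. The groups overlapped, and the difference of 0.32 had an interval from -0.28 to 0.92. Its cytosolic beta subunit gene Cacnb2 was at 8.43 and 8.47 against 8.55 and 7.99, and its extracellular subunit gene Cacna2d1 at 8.28 and 8.62 against 8.40 and 8.37. Both overlapped, with differences of -0.18 and -0.06. The 14 accessory calcium channel genes together differed by -0.21 to 0.35.

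The 3 channel genes higher at an unadjusted p under 0.05 all encode potassium channel pores. Kcns3, among the lower genes, is also counted with the 31 voltage-gated potassium channel pore genes. Kcnh2, the pore of the rapid delayed rectifier that ends the action potential, was at 6.32 and 6.33 with Ad-GFP and at 7.11 and 6.73 with Ad-atrogin-1. Both arrays were higher, and the difference was 0.60 ± 0.16 (1.51-fold, interval 0.19 to 1.00, adjusted p = 0.235 in limma). Kcne2, an accessory subunit that can join Kcnh2, lay below the median and differed by -0.25 with overlapping groups. Kcnq1, the pore of the slow delayed rectifier, was at 6.43 and 6.78 against 7.14 and 6.39, so its groups overlapped, and its partner Kcne1 differed by 0.000455, at signals from 4.71 to 4.93.

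Among the transient outward channels, which shape early repolarization, Kcna4 had the largest positive estimate of the channel genes but lay below the array median. Its signal was 4.50 and 3.85 with Ad-GFP and 5.15 and 4.79 with Ad-atrogin-1. The groups did not overlap, and the difference was 0.79 ± 0.25 (1.73-fold, interval 0.17 to 1.41, adjusted p = 0.281 in limma). Kcnd2, another of these pores, was at 5.31 and 5.37 against 5.79 and 5.46, a difference of 0.29 with no overlap. Kcnd3, the third, had negative estimates at all 3 of its probe sets, of a size that depended on the probe set. The one that stands for the gene differed by -0.24 with overlapping groups (5.52 and 4.94 against 4.93 and 5.05). Another was at 5.08 and 5.19 against 4.51 and 4.36, a difference of -0.69 with no overlap (adjusted p = 0.132 over all probe sets in limma). The last differed by -0.22, also with no overlap.

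Kcnip2, the accessory subunit that joins the Kcnd pores in ventricle, had the widest spread between replicates of the channel genes. It was at 4.45 and 5.43 with Ad-GFP and at 5.49 and 4.22 with Ad-atrogin-1, and a second probe set gave 3.68 and 4.72 against 5.39 and 4.18. In these 2 of its 3 probe sets replicate 2 was the higher with Ad-GFP and the lower with Ad-atrogin-1, while the last, far below the median, had smaller gaps the other way (2.92 and 2.80 against 2.81 and 2.94). The second differed by 0.58 and the last by 0.02. The difference of -0.08 at the first carried an interval from -1.31 to 1.14, the widest among the 114.

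Kcnj8, the pore of a metabolically gated (ATP-sensitive) channel known from smooth muscle and pericytes as well as heart, was at 5.84 and 6.28 with Ad-GFP and at 6.44 and 6.90 with Ad-atrogin-1. Both arrays were higher, the lower of them by less than the gap between the Ad-GFP arrays, and the difference was 0.61 ± 0.22 (1.53-fold, interval 0.06 to 1.16, adjusted p = 0.339 in limma). Kcnj11, the ATP-sensitive pore typical of ventricular myocytes, overlapped, at 7.03 and 6.55 against 7.11 and 6.24. Rgs5, a pericyte gene, was also higher, at 6.34 and 6.57 against 7.22 and 7.64 (0.98, adjusted p = 0.108 in limma). It had the largest difference of the 6 smooth muscle and pericyte markers, which ran from -0.03 to 0.98. Rgs5 and Myh11 had both arrays higher, and the groups overlapped for the other 4. The summed signal of the 6 smooth muscle and pericyte markers was 12.04 and 12.20 with Ad-GFP and 12.26 and 12.20 with Ad-atrogin-1 on the log2 scale, and its part in the Kcnj8 values was not tested.

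Kcnj3 and Kcnj5, which together form the acetylcholine-gated channel, both had positive estimates. Kcnj5 was at 6.94 and 6.74 against 7.13 and 7.09, a difference of 0.27 with no overlap, and Kcnj3 at 5.80 and 6.03 against 5.93 and 6.57, which overlapped (0.34). Their other probe sets all overlapped, with differences of 0.13 (Kcnj5) and of 0.02 and 0.02 (Kcnj3). The classical inward rectifiers that clamp the resting potential did not pass the median on both arrays. Kcnj2 was at 4.37 and 4.21 against 4.19 and 4.37, Kcnj12 between 3.33 and 3.66, and Kcnj4 between 5.40 and 5.79, all with overlapping groups.

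**Figure D3:**
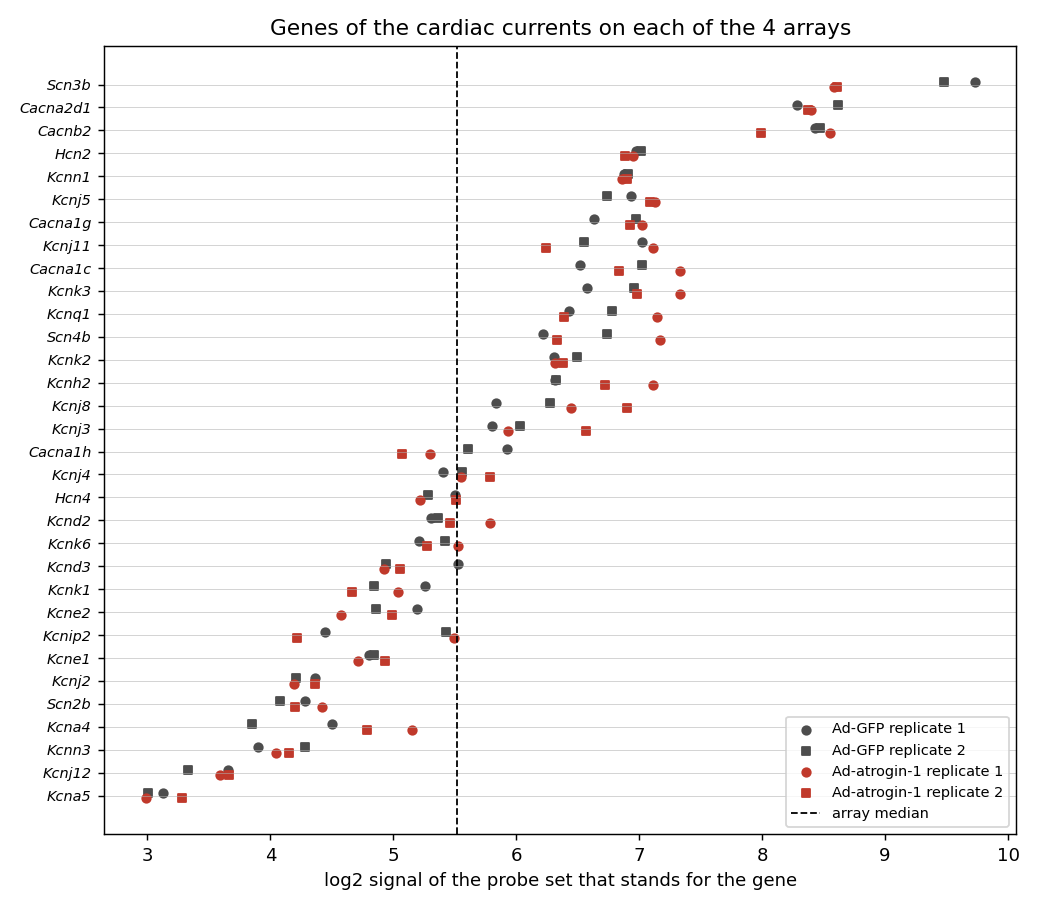
Log2 signal (x axis) on each of the 4 arrays for the 32 measured genes of the cardiac currents, ordered by mean Ad-GFP signal. Grey symbols are Ad-GFP and red symbols Ad-atrogin-1 (circle, replicate 1; square, replicate 2), and 23 of the 32 genes have overlapping groups.

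Of the pacemaker channels, Hcn2 was at 6.98 and 7.02 with Ad-GFP and at 6.95 and 6.88 with Ad-atrogin-1, a difference of -0.08 with an interval from -0.37 to 0.21. Hcn4, the main sinoatrial form, lay just below the median, at 5.51 and 5.28 against 5.22 and 5.51. Neither difference reached 1.5-fold at either end of its interval. Among the background channels, Kcnk3 was at 6.57 and 6.96 against 7.34 and 6.98, a difference of 0.39 with groups apart by a narrow margin. Its 2 other probe sets differed by -0.17 and 0.48, in opposite directions. Kcnk2, which responds to stretch, was at 6.31 and 6.49 against 6.32 and 6.38, and Kcnk1 and Kcnk6 differed by -0.20 and 0.08.

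The small-conductance calcium-activated genes Kcnn1 and Kcnn3 differed by -0.01 and 0.01, the first at signals from 6.86 to 6.91 and the second below the median. Kcna5, the pore of the ultrarapid delayed rectifier, was at 3.13 and 3.00 against 2.99 and 3.28. Of the genes with high Ad-GFP signal outside the cardiac current list, Kcng2, an electrically silent subunit that modifies other Kv channels, was at 7.42 and 7.33 against 8.03 and 7.51 (0.39, no overlap). Kcnh3 and Kcnq5, best known from brain, differed by -0.12 and 0.09, and Cacng2, a regulator of glutamate receptors in neurons, by -0.12. Kcns3, a silent subunit like Kcng2, lay below the median, at 4.53 and 4.50 against 4.15 and 4.15, and its difference of -0.37 had an adjusted p of 0.28 in limma.

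The differences lay on both sides of 0 in each of the 10 families. Over all genes, both arrays were higher for 20.7% and lower for 22.3%. The 31 voltage-gated potassium channel pores differed by -0.37 (Kcns3) to 0.79 (Kcna4), with both arrays higher for 6 of them and lower for 6. Those of the 15 inward rectifiers ran from -0.17 (Kcnj14) to 0.61 (Kcnj8), with 3 higher and 2 lower on both arrays. For the 11 background channels the range was -0.20 to 0.39, with 1 higher and 2 lower. The 13 accessory potassium channel genes ran from -0.25 to 0.58, with 1 higher and 2 lower, and the 10 pore-forming calcium channel genes from -0.58 to 0.32, with 0 higher and 2 lower. The second of these 2, Cacna1i, a T-type pore of brain, was at 5.68 and 5.64 against 5.53 and 5.51, a difference of -0.14 that was several times the gap between its replicates but small in size. Of the 5 calcium- or sodium-activated genes, Kcnma1 and Kcnn4 had both arrays higher, by 0.27 and 0.19 at signals between 3.64 and 4.33, below the median. Kcnma1, the large-conductance channel of smooth muscle, was at 4.04 and 3.95 against 4.19 and 4.33.

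Over the cardiac current list, 32 of 37 genes were measured and 17 lay above the median. Limma called 0 of the 32, where 0.436% of all genes were called higher and 0.0563% lower. At an unadjusted p under 0.05 it put 3 higher (Kcna4, Kcnh2 and Kcnj8) and 2 lower (Scn3b and Cacna1h), where 6.61% and 6.34% of all genes were. Both arrays were higher with atrogin-1 for 6 of the 32 and lower for 3, where 20.7% and 22.3% of all genes were so.

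**Figure D4:**
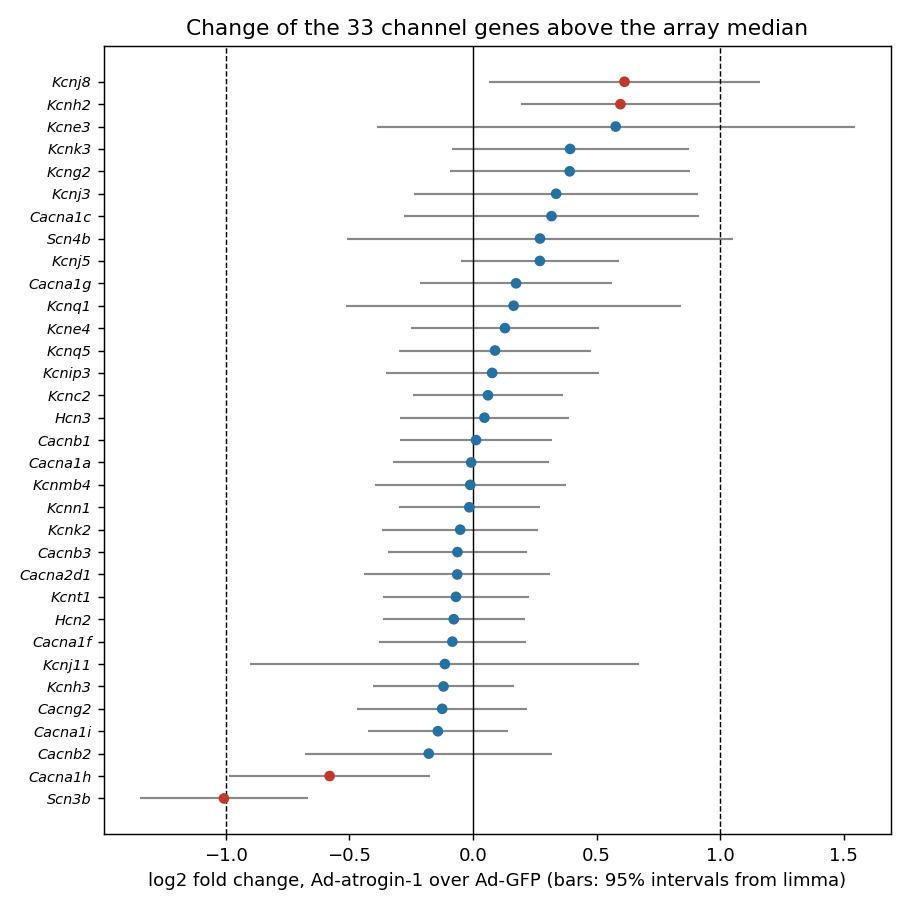
Log2 fold change of Ad-atrogin-1 over Ad-GFP with its 95% interval from limma (x axis) for the 33 channel genes above the array median, in order of size. Dashed lines mark 2-fold, red points an unadjusted p under 0.05, and 28 of the intervals lie between the dashed lines.

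The spread between replicates was close to that of all genes. The larger of the 2 within-group gaps had a median of 0.23 for the channel genes and 0.24 for all genes. A gap over 0.5 was found for 14 of the 114 and for 1715 of the 14217. Some myocyte channel genes were highest on the same arrays. Kcnip2, Scn4b, Kcnq1 and Cacna1c, picked out after their values were seen, were each highest on Ad-atrogin-1 replicate 1 and next highest on Ad-GFP replicate 2. The summed signal of the 8 cardiomyocyte markers had the same 2 arrays on top (14.88 and 15.01 with Ad-GFP, 15.26 and 14.90 with Ad-atrogin-1, log2 scale). This order was not particular to cardiomyocyte markers. The same 2 arrays were on top for the summed smooth muscle and pericyte markers (12.038 and 12.205 against 12.263 and 12.202). They were also on top for the summed fibroblast markers (13.34 and 13.72 against 13.70 and 13.62). The endothelial, neuron, and Schwann and glial sums had other arrays on top. Of the single cardiomyocyte markers, 4 of 8 had these 2 arrays on top. Of those, 2 had Ad-atrogin-1 replicate 1 highest and Ad-GFP replicate 2 next (Myh6 and Ryr2), and the other 4 markers did not have them on top.

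Kcne3, an accessory subunit, showed another order, also picked out afterwards. It was at 5.64 and 6.20 with Ad-GFP and at 5.94 and 7.06 with Ad-atrogin-1, with replicate 2 above replicate 1 in both groups. The summed signal of the 5 endothelial markers, 8.45 and 8.97 against 8.50 and 9.48, had replicate 2 on top in both groups too, and so did Kcnj8 and Kcnj3. Many other channel genes had this order as well, among them Kcnk2, Kcnj4, Cacng2 and Kcnn3, so it is not particular to the genes picked out. The part of cell composition in these values was not tested.

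**Figure D5:**
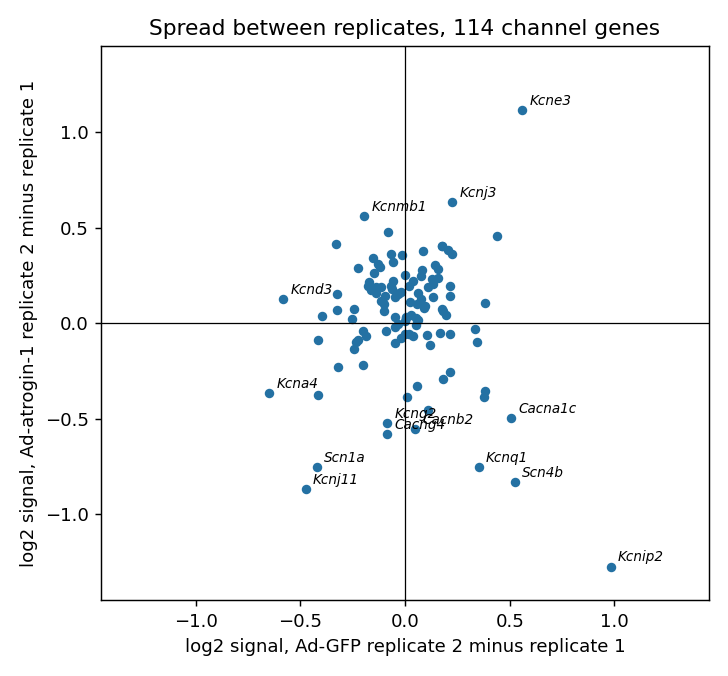
Log2 signal of replicate 2 minus replicate 1 within Ad-GFP (x axis) and within Ad-atrogin-1 (y axis) for the 114 channel genes, with the 14 genes named that have a gap over 0.5. Kcnip2 lies far from 0 with opposite signs on the axes, and Kcne3 far from 0 with the same sign.

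More than 1 probe set was present for 42 of the channel genes, 109 probe sets in all, and the sign of the difference was the same at all probe sets for 22 of them. A gene with a single probe set, such as Kcnh2, Kcnj8, Kcna4 or Kcns3, has no such check on the array.

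Promoter windows of 300 bases, from 250 before to 50 after the start, were matched by symbol to 79 of the 114 genes in RefSeq (rat, build GRCr8), and to Kcna4, Kcnj8 and Kcns3 of the 6 genes at an unadjusted p under 0.05. Those of the higher Kcna4 and Kcnj8 are shown, since the promoters of these genes are of opposite base composition. Kcna4 lies at chr3:114215086-114215385 on the plus strand and Kcnj8 at chr4:177246499-177246798 on the minus strand, both printed 5′ to 3′ in the direction of the gene with CG pairs in capitals:
Kcna4: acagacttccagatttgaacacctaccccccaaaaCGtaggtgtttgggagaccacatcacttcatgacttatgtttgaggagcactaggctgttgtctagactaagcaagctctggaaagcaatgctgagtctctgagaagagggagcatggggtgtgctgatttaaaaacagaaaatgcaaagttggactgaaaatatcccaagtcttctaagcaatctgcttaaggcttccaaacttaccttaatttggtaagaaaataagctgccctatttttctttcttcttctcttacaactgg
Kcnj8: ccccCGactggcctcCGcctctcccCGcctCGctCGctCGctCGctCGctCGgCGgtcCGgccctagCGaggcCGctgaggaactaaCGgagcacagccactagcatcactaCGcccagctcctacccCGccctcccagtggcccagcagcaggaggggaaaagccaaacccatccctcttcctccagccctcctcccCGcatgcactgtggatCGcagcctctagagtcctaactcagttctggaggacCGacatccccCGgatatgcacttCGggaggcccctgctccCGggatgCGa

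The Kcna4 window is 41.7% G and C with 1 CG pair, and 13.6% of 33469 promoter windows have no more. The Kcnj8 window is 67.0% G and C with 23 CG pairs, and 19.5% of windows have as many or more, the median of all windows being 7. On either strand, neither window nor that of Kcns3 holds GTAAACA, the core that FoxO factors bind and that 3.78% of windows hold. Since most windows lack it, its absence from these windows carries little information on FoxO binding. A comparison over all the channel promoters is not given, since it would leave out the genes without a window (69.3% have one).

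Proteins that bind or regulate channels, and transcription factors of channel genes, were measured for 37 of 43 listed genes, 27 of them above the median. Limma called 0 of them, and put 1 higher and 1 lower at an unadjusted p under 0.05, where 6.61% and 6.34% of all genes were. Tbx5, a transcription factor of the cardiac conduction system, was at 6.28 and 5.70 with Ad-GFP and at 6.96 and 6.40 with Ad-atrogin-1. The groups did not overlap, and the difference was 0.69 ± 0.27 (adjusted p = 0.366 in limma). Fgf13, an intracellular modulator of sodium channels, was at 8.59 and 8.58 against 8.33 and 7.75, a difference of -0.55 ± 0.21 with no overlap (adjusted p = 0.354 in limma). Both arrays were higher with atrogin-1 for 7 partner genes and lower for 7, where 20.7% and 22.3% of all genes were so.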

How the data were processed

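RNA of the 4 samples was hybridized to an Affymetrix rat genome array. The deposited log2 values are those of the authors, who summarised raw intensities with RMA in GeneSpring GX, giving each probe set a log2 signal. They were used as deposited, with no filter on low signal, after 57 control probe sets were left out. Of the 31042 others, 20826 were paired with 1 gene, 436 with several and 9780 with none in the annotation of the array. No probe set of a channel gene was paired with several. For each of 14217 genes, the brightest probe set was kept (by the mean of the 4 arrays). The labels give each group 2 biological replicates, fewer than the independent experiments that the methods mention. P-values measure the spread between these arrays, whose number limits the precision.

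The comparison used lmFit and eBayes of limma (version 3.58.1, in R 4.3.3), two-sided, without a block and with 1 prior variance over genes, and Benjamini-Hochberg adjustment over all genes. A call needed 2-fold or more with the adjusted p under 0.05, as in the methods. The prior of the fit had an SD of 0.141 and 3.62 degrees of freedom, beside 2 residual ones. Standard errors and 95% intervals are those of the moderated fit. The methods name a test of 2 means without detail, so the equal-variance test, called the methods' t-test here, was run as an alternative. Other alternatives were centring, a further quantile normalization, a filter to the upper 60% of probe sets, the mean over the probe sets of a gene, other variance models, a replicate block, other thresholds, and leaving out each array. The fit was tested on simulated data.

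The genes named are the members of a cardiac current list, those at an unadjusted p under 0.05 (up to 10 in each direction), the 15 with the highest Ad-GFP signal, partner genes called or at an unadjusted p under 0.05 (up to 3 in each direction), and others within counts of their family. The channel genes and all lists (cardiac current, channel partners, and markers of cardiomyocytes, fibroblasts, endothelium, smooth muscle and pericytes, neurons, and Schwann and glial cells) were chosen with earlier results of these data known. Markers were summed on the linear scale and given as log2. Some listed genes are not reported here, and neither are the study's PCR and protein measurements. Figures were drawn with matplotlib 3.10.9.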

Additional observations from a re-analysis of the deposited data

How the results depend on the processing

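No alternative called a channel gene higher. A further quantile normalization called 1 lower (Scn3b, adjusted p = 0.0455 in limma), and the share of all genes called under it was not computed. The threshold of 2-fold with no test also gave 1 lower (0.877% of the channel genes, where 1.21% of all genes passed in either direction). At an unadjusted p under 0.05 the methods' t-test put 6 lower (5.26%, against 4.56% of all genes). Leaving out 1 array gave 1 to 6 higher (0.877% to 5.26%, where 4.70% to 6.07% of all genes were) and 1 to 3 lower (0.877% to 2.63%, where 3.72% to 5.02% were; limma, with a lone array assumed to vary like the other group), and Scn3b was among the lower each time, with differences from -1.13 to -0.88. It was the only one (1) when Ad-GFP replicate 1 or Ad-atrogin-1 replicate 2 was left out, and the 1 higher was Kcna4 or Kcnj8 when Ad-GFP replicate 1 or 2 was. The median difference then ran from -0.0443 to 0.0363. The count above the array median was 17 (14.9%, against 51.6% of all genes) where every probe set of the gene had to pass. It was 4 (3.51%, against 36.1%) for the upper quartile and 11 (9.65%, against 48.1%) for the median over the probe sets that stand for genes. It was 22 (19.3%, against 59.4%) when the probe sets of a gene were averaged, and 33 to 34 when an Ad-GFP array was left out. With the replicate number as a block, limma called 0 and put 4 higher and 3 lower at an unadjusted p under 0.05, where 6.84% and 5.93% of all genes were. The labels share only a number, and the gaps between replicates 1 and 2 of the groups correlated at 0.04 over all probe sets. Variance shared across all probe sets, added after seeing the data, gave 4 higher, 3 lower and 0 called, where 6.83% and 6.52% of all genes were higher and lower.

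Of the 37 channel genes named by rule, 19 kept the sign of their difference under all alternatives, among them all 6 at an unadjusted p under 0.05. The groups of these 6 do not overlap, so leaving out 1 array could not turn their sign, and the kept sign is no further support for them. Kcnj2 turned to 0.0171 under quantile normalization, and Kcnip2 and Kcnj11 to 0.172 and 0.00866 with their probe sets averaged. Leaving out 1 array turned the sign of 18, whose differences then ran over -0.231 to 0.104 (Cacna2d1), -0.457 to 0.099 (Cacnb2), -0.176 to 0.115 (Hcn4), -0.0773 to 0.217 (Kcna5), -0.534 to 0.0473 (Kcnd3), -0.109 to 0.11 (Kcne1), -0.722 to 0.552 (Kcnip2), -0.548 to 0.321 (Kcnj11), -0.0251 to 0.298 (Kcnj12), -0.0942 to 0.0806 (Kcnj2), -0.405 to 0.00888 (Kcnk1), -0.142 to 0.0392 (Kcnk2), -0.0424 to 0.212 (Kcnk6), -0.0367 to 0.00705 (Kcnn1), -0.184 to 0.199 (Kcnn3), -0.212 to 0.541 (Kcnq1), -0.073 to 0.252 (Kcnq5) and -0.145 to 0.688 (Scn4b). None of these differences was called, and the cause was not tested. With 2 arrays a group, a true change within a 95% interval that holds 0 cannot be told from none. A change whose interval excludes 0 can also miss a call, as that of Scn3b did (-1.35 to -0.67). Channels with dim probe sets may be limited further by background, which can draw log ratios toward 0 and whose part was not tested.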
